A study of Mus musculus with 15 samples.

Results

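The libraries described here are the 5 sham optic nerves of a mouse RNA-seq series, which holds 15 optic nerve libraries in 3 groups. They were chosen by their labels alone. All came from adult C57BL/6J mice that had received AAV2-Null, an adeno-associated virus of serotype 2 that carries no transgene, into the vitreous of the eye, followed by a sham operation without optic nerve crush. The other 10 nerves were crushed after AAV-Null or AAV-CNTF and are not analysed here. Every nerve of the series thus came from a mouse given a virus, and these libraries do not show the nerve of an uninjected mouse. The labels state no sex, and no times of injection, operation or collection for sham nerves. The libraries are numbered 2 to 6 as in the labels. They held 19856688 to 26411929 expected counts each over 14237 listed genes, and 20 of those genes had no count in any of them.

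The optic nerve is a white matter tract. Axons run through it from ganglion cells whose nuclei lie in the retina, and it has no neuronal cell bodies of its own. Oligodendrocytes wrap these axons in myelin, a stack of membrane rich in a few proteins and in cholesterol and galactolipids. Astrocytes, precursors known as NG2 glia, microglia, vessels and a fibrous meningeal sheath make up most of the rest.

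Levels are given as FPKM, fragments scaled by transcript length and library depth, which is scaled by length and so allows genes to be compared within a library. Means are given with the SD over the 5 libraries. Values per library are listed for replicates 2, 3, 4, 5 and 6 in that order. The spread of a gene between libraries is the coefficient of variation (CV) of its depth-scaled counts (CPM), normalised by TMM (trimmed mean of M values) with no scaling by length. The annotation is GENCODE M21 on mm10.

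A few short noncoding RNAs took most of the summed FPKM. The 7SL RNAs Rn7s1 and Rn7s2, the RNA part of the signal recognition particle, held 46.4 ± 7.97% of it. The share was 39.0%, 59.8%, 42.2%, 45.2% and 45.8%, so that replicate 3 stood highest. Of the expected counts, which are not scaled by length, the same pair of genes held 7.30 ± 2.64%, again with the highest share in replicate 3, at 11.8%. Rn7sk, which restrains transcription elongation, was listed at 69289 ± 9428 FPKM. Rpph1, the RNA of ribonuclease P, was listed at 27219 ± 2983 FPKM. The 12945 nuclear protein-coding genes held 26.9 ± 4.62% of the summed FPKM and 74.9 ± 2.34% of the expected counts. The 15 genes of the mitochondrial genome held 8.62 ± 1.51% of the FPKM. Near-identical copies could share reads among the 7SL genes, and between mitochondrial genes and nuclear pseudogenes such as Gm10222 (13690 ± 1319 FPKM), so the level of each copy is uncertain.

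**Figure D1:**
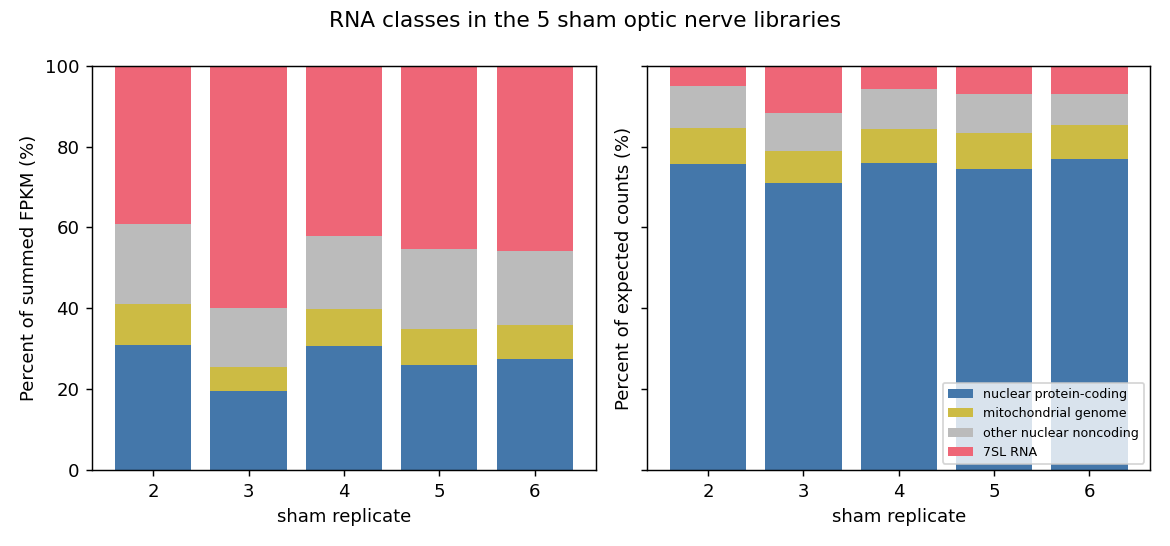
Share of 4 RNA classes in each sham library, as percent of summed FPKM (left) and of expected counts (right), stacked bars by replicate. The 7SL RNAs take 39.0% to 59.8% of FPKM and 5.11% to 11.8% of counts, with replicate 3 highest on both scales.

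Because 3 genes held 50% of the summed FPKM, the shares below are of the summed FPKM of nuclear protein-coding genes, a denominator chosen after these values were seen. Within that class 485 genes held 50% of the total, with 432 to 521 genes in the single libraries. The 10 most abundant held 14.2%, the 100 most abundant 31.1% and the 1000 most abundant 60.6%. Of the coding genes, 533 had a mean of at least 100 FPKM and 28 of at least 1000 FPKM. A share of FPKM is a share of RNA. In bulk tissue, fewer cells of a type and less RNA per cell cannot be told apart.

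The most abundant coding transcript was Mbp, which encodes myelin basic protein, the protein that seals the cytoplasmic faces of compact myelin. Its FPKM was 19868, 16203, 17449, 18966 and 21177. Mbp alone made up 4.84 ± 0.447% of coding FPKM. Fth1 (chr19:9980598-9985098), the heavy chain of the iron store ferritin, followed at 10409, 10089, 10695, 9674 and 12148 FPKM. Apoe (chr7:19696109-19699188), a lipid carrier that astrocytes secrete, came next at 7036, 6045, 8098, 7375 and 7144 FPKM. Mobp, a small basic protein of myelin, was listed at 3491, 3133, 3060, 3288 and 3916 FPKM. The ranges of these 4 genes did not overlap, and their order was the same in each library. From Mobp down, each pair of neighbours among the 25 most abundant coding genes had overlapping ranges, so the order below is not resolved by 5 libraries.

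Ptgds (3310 ± 1583 FPKM), a prostaglandin D synthase made by oligodendrocytes and meningeal cells, ranked 5 among coding genes. Mt1 (2689 ± 298 FPKM), a metallothionein that binds zinc and copper, ranked 7. Kif5a (chr10:127225696-127263348), a kinesin motor heavy chain known for transport along axons, reached 2336, 1843, 1853, 2359 and 1854 FPKM and ranked 8 among coding genes. Fxyd1 (2007 ± 202 FPKM), a regulator of the sodium pump, and the translation factor Eef1a1 (1912 ± 87.4 FPKM) ranked 9 and 10. The astrocyte filament genes Vim (1675 ± 218 FPKM) and Gfap (1624 ± 116 FPKM) ranked 15 and 16. Among these genes Ptgds had the widest spread between libraries, at 4308, 3776, 5054, 2267 and 1147 FPKM, with replicates 5 and 6 low.

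**Figure D2:**
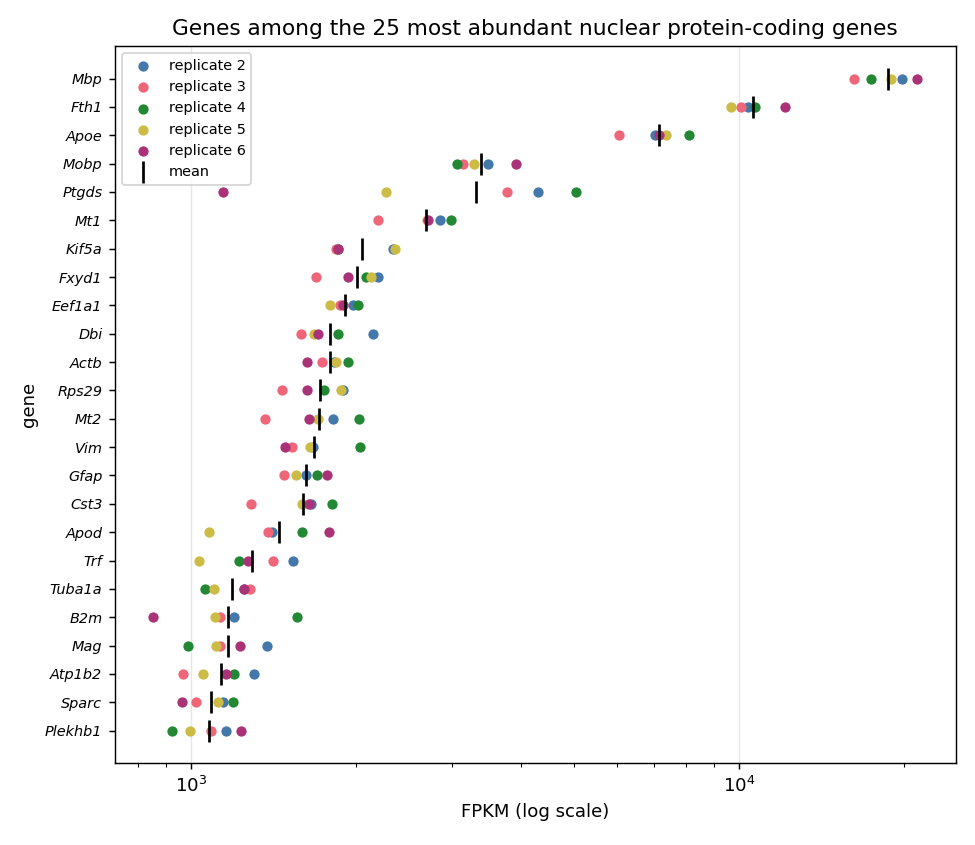
FPKM (log axis) of nuclear protein-coding genes among the 25 with the highest mean, 1 point per sham library and a black tick for the mean. Mbp, Fth1, Apoe and Mobp follow each other without overlap, and Ptgds spreads from 1147 to 5054.

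Genes of compact myelin and the myelin membrane were the group with the highest levels among the marker lists drawn in the plot of listed genes. All 17 were listed, with a median of 333 FPKM and a median percentile of 98.8 among the listed genes. They held 7.96 ± 0.702% of coding FPKM, at 8.26%, 7.54%, 7.19%, 7.82% and 9.01%. Mag, an adhesion protein of the membrane next to the axon that also restrains axon growth, was at 1168 ± 145 FPKM. Cldn11, which forms the tight junctions between myelin layers, was at 893 ± 114 FPKM, and Cnp, which keeps cytoplasmic channels of myelin open, at 566 ± 74.0 FPKM. Mog, on the outer surface of the sheath, was lower at 190 ± 19.5 FPKM. Jam3 was the lowest member at 39.7 ± 5.01 FPKM, so that the list spanned from 39.7 to 18733 FPKM.

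The spread of these genes was small. None of the 17 myelin genes had a CV of 0.5 or more, against 0.812% of all genes in the same count ranges. Over all 12925 genes with a mean of at least 50 expected counts the share was 9.76%. The median CV of the myelin genes was 0.113, against 0.204 over all those genes. The low value goes with high counts: among all genes with over 10000 mean counts the median CV was 0.0951.

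The 31 markers of mature oligodendrocytes held 5.88 ± 0.435% of coding FPKM with a median of 168 FPKM. Fth1 and Ptgds were the largest members, at 2.74% and 0.854% of coding FPKM, and so supplied much of that share. Ptgds is also counted among sheath fibroblast genes, so the share is not one of oligodendrocyte RNA alone. Which cells held the RNA of Fth1, its largest member, was not tested. Apod, a lipid-binding lipocalin, was at 1450 ± 264 FPKM, and Trf, which carries iron, at 1294 ± 190 FPKM. Car2, a carbonic anhydrase, was at 632 ± 87.7 FPKM. The transcription factors that maintain the myelinating state were lower, with Myrf at 212 ± 19.5 FPKM and Sox10 at 162 ± 23.1 FPKM. None of the 31 reached a CV of 0.5, against 0.714% of all genes in the same count ranges.

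Enzymes that make myelin lipids were all listed, 21 of 21, with a median of 34.0 FPKM. Scd2, a fatty acid desaturase, led at 738 ± 77.9 FPKM, followed by Fa2h (266 ± 26.8 FPKM), which hydroxylates the fatty acids of galactolipids, and Cers2 (149 ± 18.8 FPKM), a ceramide synthase. Ugt8a, which makes galactosylceramide, was at 110 ± 16.3 FPKM. Of the genes of cholesterol synthesis, Hmgcs1 was at 126 ± 21.3 FPKM and Sqle, the squalene epoxidase, at 28.5 ± 5.58 FPKM. Relative to each gene's own mean, these genes were lowest in replicates 4 and 5. The mean deviation was 0.17, 0.01, -0.22, -0.16 and 0.20 on the log2 CPM scale. Myelin genes deviated the same way, by 0.15, 0.00, -0.17, -0.11 and 0.13.

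Markers of NG2 glia were low beside those of myelin. The 19 genes held 0.145 ± 0.00677% of coding FPKM and had a median of 18.9 FPKM. Olig1 (185 ± 14.7 FPKM) and Olig2 (61.9 ± 7.67 FPKM), factors of the whole oligodendrocyte lineage, were the most abundant. The receptors that define the precursors were lower. Pdgfra, the receptor for a mitogen of these cells, was at 24.8, 23.5, 25.5, 26.2 and 21.9 FPKM, and Cspg4, the NG2 proteoglycan itself, at 7.03, 8.52, 12.7, 7.31 and 9.03 FPKM. Pdgfra is also made by fibroblasts. No member had a CV of 0.5 or more, against 2.93% of all genes in the same count ranges.

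Genes that mark newly formed oligodendrocytes were listed for 11 of 12 names. Bcas1 was the most abundant at 753 ± 67.3 FPKM, and mature oligodendrocytes also express it. Enpp6, a choline phosphodiesterase of early myelinating cells, was at 54.3, 51.8, 45.8, 48.5 and 85.9 FPKM, highest in replicate 6. Gpr17, a receptor of the stage between precursor and oligodendrocyte, was at 21.1 ± 1.70 FPKM. Bmp4 varied most of these 11 genes, with 12.7, 18.3, 9.92, 12.4 and 3.73 FPKM.

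Cell cycle genes were low. All 20 members were listed, with a median of 1.32 FPKM and a median percentile of 7.13, and 6 reached 1 FPKM in at least 4 sham libraries. Lists with unlisted names, such as skeletal muscle with 17 of 38 listed, leave those names out of their medians. The medians of such lists therefore cannot be ranked against this one. Mki67, a marker of cycling cells, was at 0.83, 1.27, 1.59, 0.84 and 1.69 FPKM. The replication clamp Pcna, which also serves DNA repair, stood apart from the others at 33.5 ± 5.58 FPKM. Only 9 of the 20 had a mean of at least 50 expected counts, so spread was not described for the rest.

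Astrocyte genes formed the second large block, with 32 of 33 names listed, a median of 132 FPKM and 4.53 ± 0.234% of coding FPKM. The share was 4.44%, 4.22%, 4.86%, 4.52% and 4.60%. Apoe, Vim and Gfap led, and Cst3, a secreted protease inhibitor, was at 1598 ± 192 FPKM. Clu, a secreted chaperone, was at 987 ± 83.6 FPKM, and Glul, which turns glutamate into glutamine, at 522 ± 31.9 FPKM. The glutamate transporter Slc1a3 was at 241 ± 26.8 FPKM and its relative Slc1a2 at 80.8 ± 11.1 FPKM; Slc1a3 was above Slc1a2 in each library. The water channel Aqp4 was at 131 ± 7.20 FPKM and Aldh1l1, a folate enzyme used to mark astrocytes, at 15.3 ± 4.18 FPKM. Many members, among them Apoe, Vim and Clu, are also expressed by other cells of the nerve. Apoe alone held 1.84% of coding FPKM, so the share of the list is not one of astrocyte RNA alone. Cbs was the only one of the 32 with a CV of at least 0.5, at 4.28, 2.23, 3.06, 3.15 and 10.3 FPKM, the high value being replicate 6.

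Genes that handle potassium, water and coupling between glia were abundant too, with a median of 66.8 FPKM for 18 members. The glial sodium pump subunit Atp1b2 was at 1135 ± 131 FPKM. Kcnj10, the inward rectifier that takes up potassium, was at 137 ± 11.4 FPKM. Of the connexins, the astrocytic Gja1 was at 199 ± 26.1 FPKM, and the oligodendrocytic Gjb1 was at 89.4 ± 17.1 FPKM.

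Transcripts of glucose and lactate supply, by which glia feed axons, were all listed (24 of 24, median 52.7 FPKM). Glycolytic enzymes led, with Gapdh at 921 ± 93.2 FPKM and Aldoa at 390 ± 27.0 FPKM. The monocarboxylate transporter of oligodendrocytes and endothelium, Slc16a1, was at 65.8 ± 6.12 FPKM, and the axonal form Slc16a7 was at 5.40, 12.5, 4.87, 21.4 and 8.87 FPKM. The CPM of Slc16a7 varied far less than its FPKM, with CVs of 0.0889 and 0.636.

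Microglia markers were all listed, 23 of 23, with a median of 34.0 FPKM and 0.648 ± 0.0586% of coding FPKM. Sparc, which astrocytes and endothelium also express, was far above the rest at 1089 ± 93.4 FPKM, or 0.281% of coding FPKM. Among genes more restricted to microglia, the cathepsin Ctss was at 193, 204, 293, 183 and 182 FPKM. The complement genes C1qa, C1qb and C1qc averaged 172, 188 and 142 FPKM. The nucleotide receptor P2ry12 was at 47.8, 33.5, 51.3, 43.9 and 57.6 FPKM. Cx3cr1, the fractalkine receptor, was at 31.04 ± 4.86 FPKM, and Tmem119 was at 22.1 ± 3.99 FPKM. Replicate 4 was the highest library for 16 of the 23 genes, with a mean deviation of 0.29 on the log2 CPM scale. The other libraries deviated by -0.09 to -0.04. No microglia gene reached a CV of 0.5, against 1.2% of all genes in the same count ranges. Over all genes with enough counts, 20.0% were highest in replicate 4.

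Markers of perivascular and meningeal macrophages were low where listed. Of 12 names 8 were listed, with a median of 2.67 FPKM, and Mrc1, the mannose receptor, was at 1.22, 1.90, 2.16, 2.95 and 1.64 FPKM. Cd163 and Clec10a were not analysed here.

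Vessel genes were intermediate. The 24 endothelial markers had a median of 11.5 FPKM and 0.167 ± 0.0140% of coding FPKM. Bsg, which glia also express, was at 280 ± 39.0 FPKM, or 0.0724% of coding FPKM. The glucose transporter Slc2a1 was at 66.4 ± 7.74 FPKM. The tight junction gene Cldn5 was at 13.5 ± 2.15 FPKM and Pecam1, an adhesion molecule of endothelium, at 10.8 ± 2.98 FPKM. For pericytes, Vtn was at 105 ± 25.5 FPKM, Rgs5 at 27.4 ± 3.72 FPKM and the receptor Pdgfrb at 10.6 ± 2.41 FPKM. Smooth muscle actin Acta2 varied more, at 11.2, 8.52, 18.6, 8.77 and 3.56 FPKM.

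**Figure D3:**
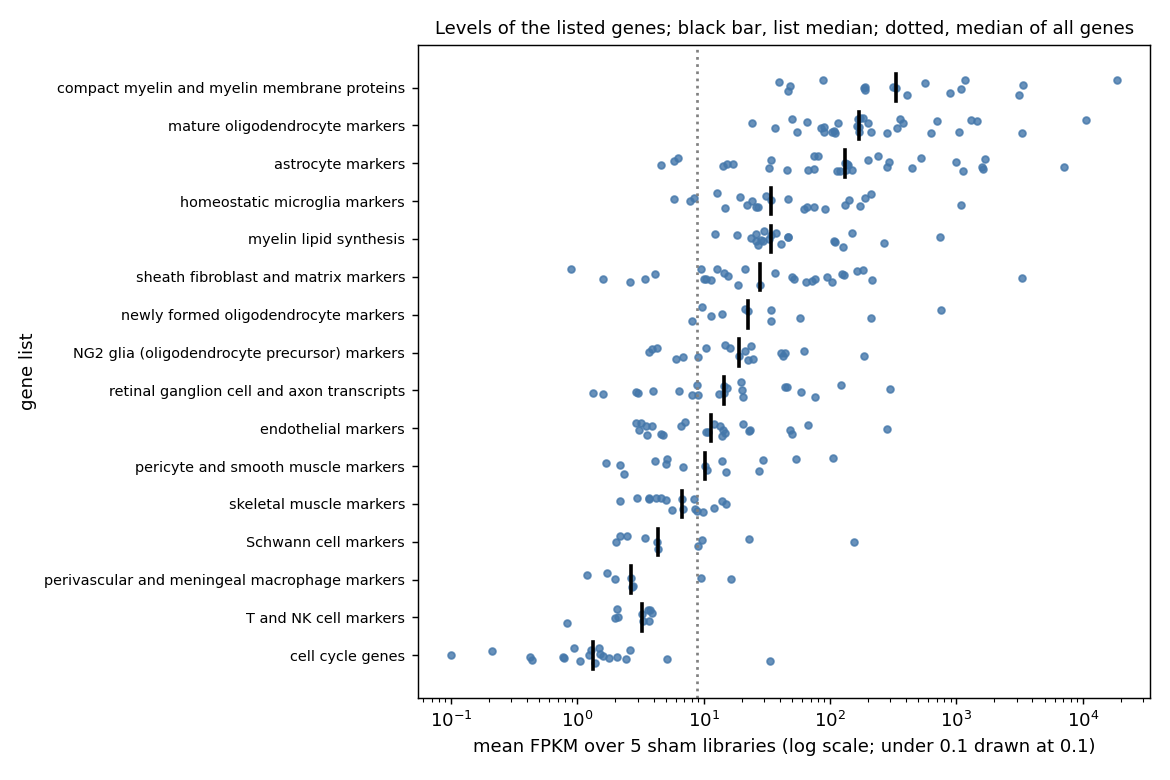
Mean FPKM over the 5 sham libraries (log axis) of the listed genes of 16 gene lists, 1 point per gene, with a black bar for each list's median and a dotted line for the median of all 14237 listed genes. Medians run from 333 for myelin genes to 1.32 for cell cycle genes. They leave out names that were not listed, so lists with many such names are not drawn on a like basis.

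Transcripts known from retinal ganglion cells and their axons were listed for 22 of 28 names, with a median of 14.4 FPKM and 0.208 ± 0.0322% of coding FPKM. The nuclear factors that define these cells, Pou4f1, Pou4f2 and Pou4f3, and the transporter Slc17a6 were not analysed here. Unc13c (chr9:73479422-73968966), of a family that primes synaptic vesicles, was the most abundant member at 299, 224, 248, 416 and 292 FPKM. Rph3a, an effector of vesicle traffic, was at 127, 90.7, 113, 167 and 117 FPKM. Both were highest in replicate 5 and lowest in replicate 3. Uchl1, a ubiquitin hydrolase abundant in neurons, was at 76.2 ± 17.6 FPKM, Map1b at 58.6 ± 3.70 FPKM and Tubb3 at 43.9 ± 3.58 FPKM. The neurofilament genes Nefh, Nefl and Nefm were at 20.0 ± 2.47, 8.84 ± 0.868 and 2.99 ± 0.601 FPKM. Rbpms, a marker of ganglion cells in the retina, was at 8.10 ± 1.81 FPKM, and Gap43, of growing axons, at 13.1 ± 1.27 FPKM. Which cells of the nerve held these RNAs was not tested.

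Genes of the node of Ranvier and of axonal channels were listed for 16 of 20 names, with a median of 17.6 FPKM. Ank2 (214 ± 7.45 FPKM), an ankyrin that anchors membrane proteins, and Nfasc (185 ± 36.6 FPKM), whose glial and axonal forms flank and occupy the node, led the list. The potassium channel Kcna1 was at 83.5 ± 12.4 FPKM. The nodal sodium channel Scn8a was the lowest of the 16 by mean FPKM, at 1.37, 3.11, 0.50, 3.53 and 1.5 FPKM. All 16 had a mean of at least 50 expected counts. None had a CV of at least 0.5 by CPM, against 9.04% of all genes in the same count ranges, so the counts of Scn8a varied less than its FPKM.

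For CNTF, the cytokine encoded by the virus given in another group of the series, the sham nerve had transcripts of the whole receptor. Cntf itself was at 26.1, 14.8, 12.8, 14.6 and 18.9 FPKM, highest in replicate 2. The binding subunit Cntfr was at 67.4, 48.1, 72.4, 70.7 and 73.6 FPKM, and the signalling subunits Il6st and Lifr were at 93.3 ± 7.48 and 16.4 ± 1.89 FPKM. Cntfr was lowest in replicate 3, and the other libraries lay between 67.4 and 73.6. The transcription factor Stat3 was at 55.3 ± 3.70 FPKM with a CV of 0.0346, and Socs3, its feedback inhibitor, was at 8.40 ± 1.38 FPKM. The related ligands Lif and Osm had means of 0.406 and 0.508 FPKM.

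Molecules that restrain axon growth and their receptors were listed for all 17 names, with a median of 25.95 FPKM. Besides Mag, Rtn4 (Nogo) was at 176 ± 15.1 FPKM, Efnb3 at 109 ± 15.5 FPKM and Omg at 48.1 ± 9.12 FPKM. The Nogo receptor gene Rtn4r was at 1.98, 1.47, 0.25, 2.87 and 2.63 FPKM. The proteoglycan receptor Ptprs was at 38.7 ± 4.68 FPKM.

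Markers of tissues beside the nerve were checked to see what else the dissection held. Rom1, at 7.55 ± 1.98 FPKM, was the only one of 20 photoreceptor genes listed, and 3 of 18 inner retina genes, 2 of 16 pigment cell genes and 2 of 14 lens genes were listed. The listed inner retina genes Slc6a9, Prkca and Pax6 are also expressed by glia. Sag, Tyr and Rpe65 were not analysed here. Of 16 Schwann cell names 10 were listed, led by Pmp22 at 155 ± 29.2 FPKM, which fibroblasts also express, while Prx was not analysed here. Skeletal muscle markers were listed for 17 of 38 names, with a median of 6.69 FPKM. Of the haemoglobin genes, Hba-a2 was at 7.13, 16.5, 13.2, 3.51 and 16.4 FPKM. T and NK cell markers had a median of 3.26 FPKM over 10 of 17 names. Each of the 14237 listed genes reached 1 FPKM in 4 or more libraries of the sham group or of a crush group, and the list thus leaves out genes of low level.

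Immunoglobulin genes were an exception to the low level of lymphocyte markers. The kappa constant gene Igkc was at 1036, 900, 682, 1396 and 889 FPKM, and Ighm, the IgM heavy chain, at 226, 154, 186, 108 and 135 FPKM. Jchain, which joins secreted IgA and IgM, was at 36.7 ± 4.82 FPKM. Heavy chain genes of other classes varied widely between libraries, with Ighg2c at 71.2, 195, 27.2, 427 and 188 FPKM and Igha at 195, 49.8, 148, 124 and 38.3 FPKM. The variable gene Igkv1-110 was at 0.00, 2.89, 384, 0.00 and 0.00 FPKM, so nearly all of its signal came from replicate 4. Variable genes resemble each other closely, and the assignment of reads among them is uncertain.

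Across all genes the 5 libraries were close but not interchangeable. The common biological coefficient of variation, the spread left after counting error, was 0.311 in edgeR. It is larger than the CV of most genes, whose median was 0.204, and why these values differ was not tested. Genes of low count varied more: the median CV was 0.411 at 50 to 200 mean counts and 0.115 at 1000 to 10000. Counting error alone gives 0.0936 and 0.0230 in these ranges. In all, 1262 of 12925 genes had a CV of at least 0.5, and 1097 of these had means under 200 counts. By the Dixon ratio, the gap of the most extreme library divided by the range, 772 genes (5.97%) had 1 library apart, where about 5% are flagged by chance. The first 3 principal components carried 29.7%, 26.9% and 23.3% of the variance. The first ran from replicate 3 (-38.4) to replicate 5 (51.2), the second from replicate 3 (-37.8) to replicate 2 (46.9), and the third was highest in replicate 4 (50.7). Across genes, which are not independent replicates, Pearson's r between libraries was 0.912 to 0.935 on the log2 CPM scale.

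Sheath, interferon-responsive, skeletal muscle and epithelial genes are described next, picked with their deviations in view. The share with a CV of at least 0.5 is given beside that of all genes in the same count ranges. Over all genes with enough counts, each library was the highest for 17.8% to 21.9% and the lowest for 17.6% to 21.3%.

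Genes of sheath fibroblasts and matrix were all listed, 29 of 29, with a median of 27.7 FPKM. They held 1.46%, 1.51%, 1.78%, 0.959% and 0.536% of coding FPKM, and Ptgds supplied most of it. Of the 28 with enough counts, 18 were highest in replicate 4 and 23 were lowest in replicate 6. The mean deviation was 0.12, 0.34, 0.62, -0.26 and -0.81 on the log2 CPM scale. A CV of at least 0.5 was reached by 8 of 28 (28.6%), against 4.56% of all genes in the same count ranges. Without replicate 6 this was 4 of 28.

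Several sheath members showed the order of the libraries. Igfbp6, a binding protein of insulin-like growth factor, was at 275, 233, 328, 181 and 56.7 FPKM. Aldh1a2, which makes retinoic acid in meninges, was at 42.8, 40.5, 64.2, 27.0 and 9.23 FPKM. Foxd1, a transcription factor of meningeal fibroblasts, was at 7.04, 13.1, 20.3, 4.22 and 2.69 FPKM. Each of these 3 was highest in replicate 4 and lowest in replicate 6. The collagen gene Col1a1 was at 84.6, 122, 154, 99.97 and 60.7 FPKM and Col3a1 at 62.3, 75.9, 134, 52.3 and 36.6 FPKM. Dcn, a small proteoglycan, and Pcolce, a collagen processing factor, varied less, at 162 ± 30.0 and 49.8 ± 6.22 FPKM. Clec3b went the other way, at 12.5, 17.0, 10.3, 25.04 and 29.3 FPKM.

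Interferon-responsive genes were highest in replicate 3. All 19 were listed and 18 had enough counts, of which 15 were highest in replicate 3 and 10 lowest in replicate 6. The mean deviation was -0.55, 1.08, 0.15, -0.03 and -0.66 on the log2 CPM scale. A CV of at least 0.5 was reached by 10 of 18 (55.6%), against 5.31% of all genes in the same count ranges. Without replicate 3 it was reached by 3 of 17.

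Ifit3, of an antiviral family, was at 17.1, 92.4, 40.9, 32.4 and 17.7 FPKM. Isg15, a ubiquitin-like modifier, was at 9.20, 45.0, 11.5, 9.67 and 12.5 FPKM. Ifit1, which binds viral RNA, was at 8.66, 38.0, 17.9, 8.78 and 8.02 FPKM, and Rsad2, the antiviral enzyme viperin, was at 1.29, 9.56, 5.92, 1.82 and 2.43 FPKM. In all 4, replicate 3 lay above every other library. Irf7, a transcription factor that amplifies interferon, was at 8.51, 32.8, 24.9, 17.4 and 2.84 FPKM. Ifit2 was at 19.3, 18.1, 12.2, 14.7 and 18.5 FPKM but at 39.1, 69.3, 42.9, 50.4 and 53.04 CPM, so that replicate 3 was highest by CPM alone. The most abundant member Ifitm3 was at 365 ± 69.5 FPKM and highest in replicate 4 on both scales. Outside the list, the chemokine Cxcl10, chosen here after its values were seen, was at 5.76, 101, 15.6, 19.3 and 13.6 FPKM.

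The upstream sequences of these 4 members are shown because they were high together in 1 library and interferon acts on such genes through a short promoter element, the interferon-stimulated response element. They are the 250 bases before the start site on the gene's own strand, from RefSeq on GRCm38.p6. Capitals mark the core GAAANNGAAA read on either strand (TTTCNNTTTC on the other), with overlapping matches joined. Ifit1 lies at chr19:34640639-34640888 on the plus strand, Ifit3 at chr19:34583279-34583528 on the plus strand, Isg15 at chr4:156200819-156201068 on the minus strand and Rsad2 at chr12:26456453-26456702 on the minus strand.
Ifit1: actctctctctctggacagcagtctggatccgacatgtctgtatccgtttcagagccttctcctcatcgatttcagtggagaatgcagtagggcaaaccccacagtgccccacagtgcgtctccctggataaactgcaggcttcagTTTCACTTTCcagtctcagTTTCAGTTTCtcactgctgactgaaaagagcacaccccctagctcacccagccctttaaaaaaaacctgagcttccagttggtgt
Ifit3: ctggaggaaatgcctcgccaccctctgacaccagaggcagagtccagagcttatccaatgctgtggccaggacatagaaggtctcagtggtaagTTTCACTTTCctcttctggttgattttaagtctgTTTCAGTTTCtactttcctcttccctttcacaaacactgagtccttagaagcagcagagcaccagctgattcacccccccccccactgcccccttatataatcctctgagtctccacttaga
Isg15: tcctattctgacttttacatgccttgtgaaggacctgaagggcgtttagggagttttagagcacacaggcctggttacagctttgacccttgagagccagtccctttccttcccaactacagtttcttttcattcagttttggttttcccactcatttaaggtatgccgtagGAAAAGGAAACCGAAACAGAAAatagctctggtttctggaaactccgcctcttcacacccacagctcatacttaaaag
Rsad2: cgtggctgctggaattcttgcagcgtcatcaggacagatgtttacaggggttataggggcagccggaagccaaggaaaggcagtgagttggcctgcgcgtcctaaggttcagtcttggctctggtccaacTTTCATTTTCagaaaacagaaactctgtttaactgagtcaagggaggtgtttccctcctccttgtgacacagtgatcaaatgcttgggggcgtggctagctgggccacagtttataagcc
Ifit1 and Ifit3 each held 2 matches, Isg15 held 3 that overlap, and Rsad2 held 1. Of the 19 listed interferon-responsive genes 14 had an entry in the promoter table, and 8 of these (57.1%) held the core, against 936 of 27025 genes (3.46%) in the whole table. Irf7, Ifi44, Xaf1, Ifit2, Ifitm3 and Oasl2 had no match in this window, and of these Irf7, Oasl2 and Ifi44 also had a CV of at least 0.5. Irf7 was also highest in replicate 3 by FPKM. The list was made of genes known to respond to interferon, so the 57.1% reflects that choice and does not bear on replicate 3. A match describes letters only.

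Skeletal muscle genes were highest in replicate 5. Of the 14 with enough counts 12 were highest there, and 7 were lowest in replicate 4. The mean deviation was 0.18, -0.20, -1.22, 1.59 and -0.35 on the log2 CPM scale. A CV of at least 0.5 was reached by 10 of 14 (71.4%), against 24.0% of all genes in the same count ranges, and without replicate 5 by 3 of 11. Ttn, the giant elastic protein of the sarcomere, was at 1.73, 10.4, 7.22, 36.1 and 4.87 FPKM. Atp2a1, the calcium pump of fast muscle, was at 3.65, 5.44, 0.91, 28.1 and 4.35 FPKM, and the troponin gene Tnnt3 at 4.45, 3.47, 7.04, 39.2 and 14.9 FPKM. In each of the 3, replicate 5 lay above all others. Tnni1, a troponin of slow muscle, differed from these, at 15.04, 10.9, 16.7, 19.1 and 13.2 FPKM and at 12.2, 10.4, 13.1, 6.94 and 8.63 CPM, with replicate 5 highest by FPKM and lowest by CPM. The summed level of the 17 listed members was 61.8 to 90.0 FPKM in the other libraries and 287 FPKM in replicate 5. The creatine kinase gene Ckm and the fast myosin gene Myh4 were not analysed here. Des is counted among smooth muscle genes as well, and 4 of 14 smooth muscle and pericyte genes (28.6%) had a CV of at least 0.5, against 6.11% of all genes in the same count ranges, or 1 of 14 without replicate 5 and 2 of 14 without replicate 6.

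Epithelial genes had few members and low values. A CV of at least 0.5 was reached by 3 of the 5 with enough counts (60%), against 20.7% of all genes in the same count ranges. Of these 5, 3 had means under 200 counts. Cdh1, an adhesion protein of epithelia, was at 5.24, 18.3, 10.1, 1.80 and 0.93 FPKM. The keratin genes Krt15 and Krt19 were at 3.29, 10.1, 2.71, 1.41 and 3.35 FPKM and at 1.48, 6.75, 4.57, 0.16 and 1.38 FPKM. All 3 were highest in replicate 3 by FPKM. By CPM Cdh1 was highest in replicate 4, at 18.3, 39.2, 41.7, 7.59 and 2.79. Epcam was listed with a mean of 0.006 FPKM.

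**Figure D4:**
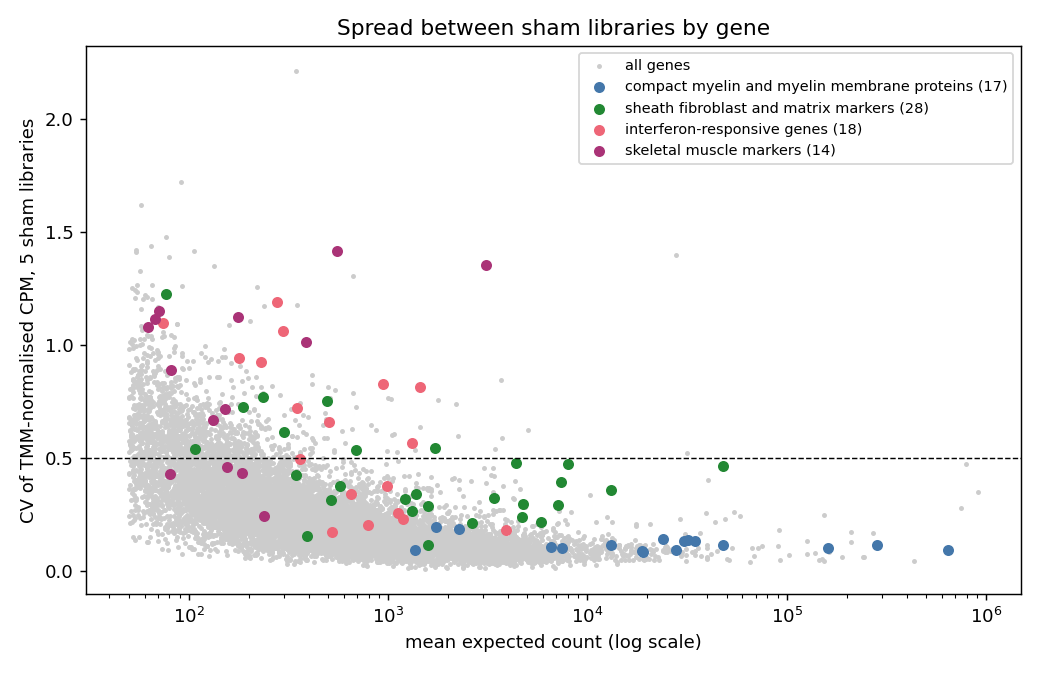
CV of TMM-normalised CPM over the 5 sham libraries against mean expected count (log axis), 1 point per gene with a mean of at least 50 counts; 4 gene lists are coloured and the dashed line marks a CV of 0.5. Myelin genes lie at high counts with CVs under 0.2, and interferon, muscle and several sheath genes lie above genes of like count.

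**Figure D5:**
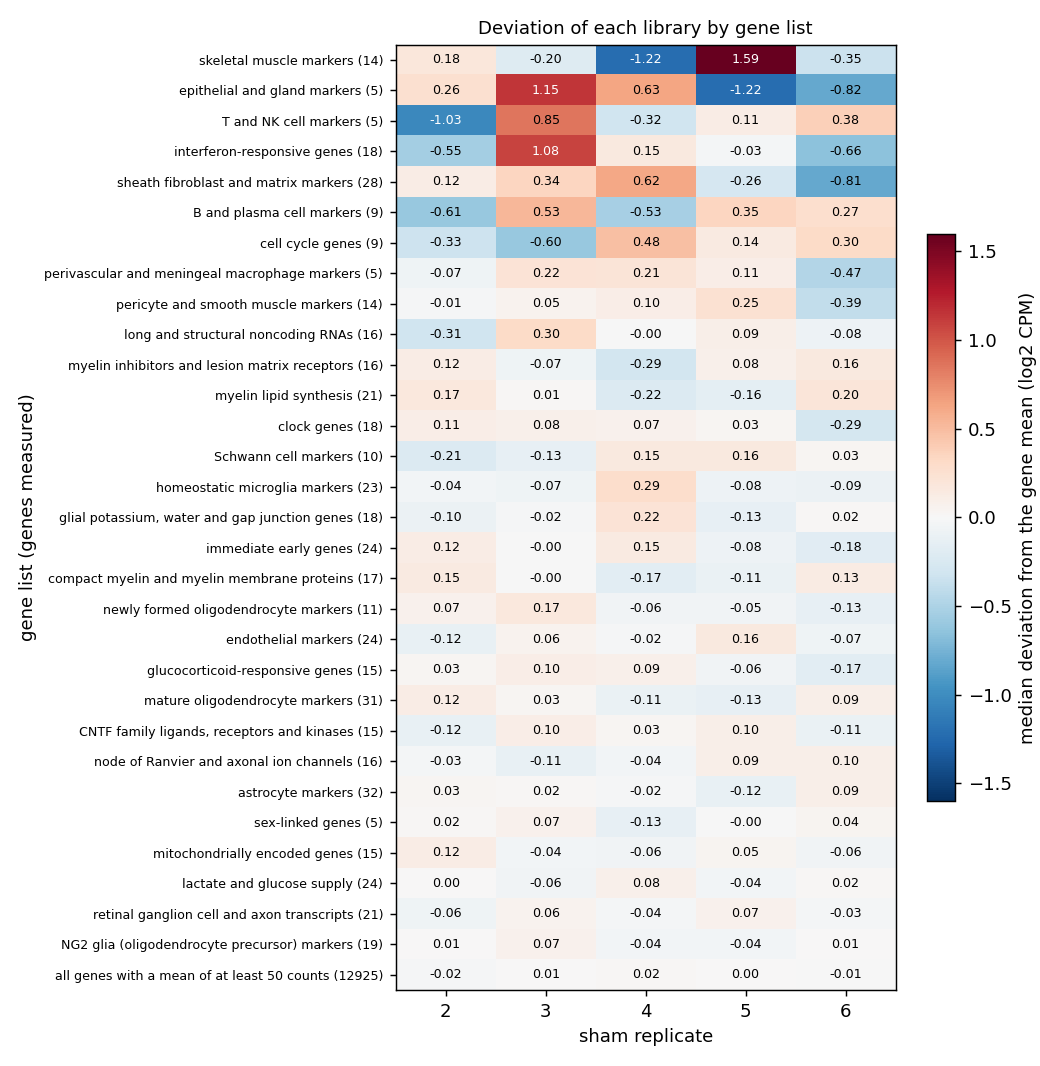
Mean deviation of each gene list from its genes' means in each sham library (log2 CPM), for lists of at least 5 genes, ordered by range. Numbers of genes are in parentheses, and the colour bar label reads median although means are drawn. Muscle genes reach 1.59 in replicate 5, interferon-responsive genes 1.08 in replicate 3 and sheath genes -0.81 in replicate 6, while astrocyte and NG2 glia genes stay within 0.12 of their means.

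The genes with the steadiest counts were BC067074, P4hb, Adamtsl1, Ppp2r5c and Zfp827. BC067074 was at 66.1, 67.2, 66.0, 66.0 and 66.3 CPM with a CV of 0.00766. P4hb, which folds collagen and other secreted proteins, was at 133, 135, 131, 133 and 133 CPM. Among the 10 largest CVs were those of Igkv1-110, AY036118 and Atp2a1, and, at few counts, those of Gm26899 and the histone gene Hist1h3i. Hist1h3i was at 0.00, 0.00, 1.34, 12.5 and 41.6 FPKM.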

How the data were processed

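The 5 sham libraries are those of 15 whose labels give sham injury. Per the labels' protocols, total RNA from optic nerve was extracted on RNeasy Micro columns and ribosomal RNA was depleted. Those protocols name 2 library kits, Nugen AnyDeplete and TruSeq Stranded Total RNA, without tying either to a library. Per the submitters' processing notes, Trimmomatic 0.32, STAR 2.5.3a and RSEM 1.2.31 were used with mm10. No source used here names the gene annotation behind the deposited table. In it, the authors deposited FPKM and RSEM expected counts per gene and library, per the file headers. They also deposited a log2 fold change and an adjusted p-value for each pair of groups, which were not used here.

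Levels, ranks and shares were computed from FPKM as deposited. Of the expected counts, 15.4% to 18.3% were not whole and were rounded. CPM was scaled by TMM in edgeR 4.0.16 (R 4.3.3), log2 CPM used a prior count of 2, and spread was described for 12925 genes with a mean of at least 50 counts, without any test. DESeq2 1.42.0 served as an alternative. The spread scripts were tested on simulated data. Of the identifiers, 14215 were found in GENCODE M21. Labels give no source animal beyond a replicate number, so the spread may be partly technical. No 2 libraries agreed within sampling noise.

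The members, the 37 gene lists (529 of 691 genes listed) and the thresholds were chosen with earlier results of these data known, and some lists share genes. By rule, the genes named are the 15 of highest mean FPKM, up to 5 of the most abundant of each main list and 3 of each other list, the 10 largest and 5 smallest CVs, and list members with a CV of at least 0.5. Some genes that the rule selects are not reported here, in the text or the plots of single genes. Any other gene named was picked with its values in view. Alternatives included another normalization, other count filters, other denominators, FPKM in place of counts, and leaving out each library.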

Additional observations from a re-analysis of the deposited data

Results flagged for a closer look

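In each case below, 1 of the 5 sham libraries lay apart from the other 4 by the Dixon ratio on FPKM. About 5% of genes would be flagged by chance. It was so for 17 of 147 named genes, but some of these were named for their large CV, so that count is not to be read against the 5%. The ratio depends on the scale: on log2 CPM, 3 of the 17 had a library apart, namely C1qc, Ttn and Cntfr, and Cryba4 had too few counts for it. No case has an explanation tested here.

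In replicate 3, Oasl1, an antiviral gene, was at 8.75 FPKM there and at 0.59 to 1.02 FPKM elsewhere. Krt15, a keratin, was at 10.1 FPKM, with 1.41 to 3.35 elsewhere. Gm26899, a noncoding RNA, was at 4.57 FPKM, with 0 to 1.27 elsewhere, and the lens crystallin Cryba4 was at 1.49 FPKM, with 0 to 0.17 elsewhere. On the low side, replicate 3 had Gapdh at 757.56 FPKM against 931.71 to 986.57, and Cntfr at 48.14 FPKM against 67.36 to 73.55.

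Replicate 4 was apart in some microglial genes and in single lymphocyte genes. Ctss, a lysosomal protease, was at 293.34 FPKM against 181.64 to 203.97, and C1qc, a complement chain, at 187.92 FPKM against 127.17 to 134.36. The microglia list as a whole held 0.750% of coding FPKM in replicate 4 and 0.603% to 0.644% elsewhere. Cd3g, a T cell receptor chain, was at 8.84 FPKM against 1.89 to 3.09, though its counts varied less than its FPKM. Igkv1-110 was at 384.02 FPKM against 0 to 2.89. The lymphocyte lists as a whole were not high in replicate 4. Their mean deviation there on the log2 CPM scale was -0.32 for 5 T and NK cell markers and -0.53 for 9 B and plasma cell markers. Of these, 2 and 0 were highest in replicate 4, and 2 and 4 were lowest. The water channel Aqp1 was at 4.19 FPKM against 0.06 to 0.83.

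Replicate 5 was apart in muscle genes and in some other groups. Ttn was at 36.13 FPKM against 1.73 to 10.37 and Atp2a1 at 28.12 FPKM against 0.91 to 5.44. The muscle list held 0.0747% of coding FPKM there and 0.0156% to 0.0245% elsewhere. Ganglion cell and axon transcripts held 0.263% against 0.181% to 0.204%, with Unc13c, its largest member, at 416 FPKM. By log2 CPM the mean deviation of that list in replicate 5 was 0.07, with 8 of 21 genes highest and 5 lowest there. Mature oligodendrocyte markers were low there, at 5.13% against 5.88% to 6.18%. However, their mean deviation on the log2 CPM scale was -0.13 in replicate 5 and -0.11 in replicate 4. In these libraries 9 and 15 of 31 genes were lowest. Rmrp, the RNA of a mitochondrial RNA processing ribonuclease, was at 21729.9 FPKM against 14668.7 to 16289.7.

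Replicate 6 was apart in Enpp6, at 85.87 FPKM against 45.75 to 54.31, in Ptprz1, a phosphatase receptor of NG2 glia and astrocytes, at 49.33 FPKM against 39.98 to 42.01, and in Gm10800, at 32.01 FPKM against 0.22 to 8.25.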

How the results depend on the processing

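No paired analysis was possible because no groups are compared. The share of all summed FPKM held by myelin genes was 2.14%, and became 5.85% of expected counts and 7.96% of coding FPKM. That of astrocyte genes was 1.22%, and became 3.13% without the 10 most abundant genes, 2.91% of expected counts and 4.53% of coding FPKM. Over all 37 lists, 115 of 220 alternative values that kept all 5 libraries moved by less than 1 SD. The number of genes holding 50% of FPKM was 3, but 145 without the 10 most abundant genes, 286 by expected counts and 485 among coding genes. Leaving out 1 library gave 3 to 5, the highest without replicate 3. The biological coefficient of variation, 0.311, was 0.381 with no count filter, 0.352 for genes averaging 1 CPM or more and 0.199 as DESeq2's median gene-wise value. Genes with a CV of at least 0.5, 1262, were 2240 by FPKM, 2393 with no count filter and 39 of those with at least 500 counts. Genes with 1 library apart, 772, were 306 with at least 500 counts. The causes were not tested beyond the change in genes counted. With 5 libraries, spread is known only roughly, and for genes under 200 counts counting error is a visible part of it.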

Other observations

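Stress-linked and time-of-day genes had broad levels in the sham nerve. Among glucocorticoid-responsive genes, all 15 listed, the metallothioneins Mt1 and Mt2 led at 2689 and 1711 FPKM, and Sgk1, a kinase induced by steroids, was at 503, 385, 518, 300 and 329 FPKM. Fkbp5, a chaperone of the glucocorticoid receptor, was low at 3.84 ± 0.965 FPKM. Of 18 clock genes, Nr1d1, a repressor of the clock, was highest at 94.9 ± 12.7 FPKM, and Ciart alone had a CV of at least 0.5, at 1.55, 2.22, 3.06, 4.73 and 1.83 FPKM. Replicate 6 was lowest for 7 of the 18. Of 24 immediate early genes with enough counts, 12 were lowest in replicate 6, as were 17.6% of all genes with enough counts. Fosb, an AP-1 subunit, was at 8.54, 1.26, 1.99, 1.52 and 1.42 FPKM, high in replicate 2, while Fos itself was at 15.7 ± 2.66 FPKM with a CV of 0.0654. Xist, the RNA of the inactive X chromosome, was at 73.2, 79.1, 94.8, 88.3 and 75.1 FPKM, and the labels give no sex.

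FPKM and counts disagreed on spread for many genes. Dividing count by FPKM gives the length that the authors' quantification assigned to a gene in a library, up to a constant. Of 11597 genes with an FPKM of at least 1 in every library, this length differed by at least 1.5 times between libraries for 4068 (35.1%). For these the median CV was 0.357 by FPKM and 0.212 by CPM. Dync1li2, a dynein light intermediate chain, was at 98.4, 94.3, 352, 165 and 155 FPKM but at 323, 297, 278, 332 and 348 CPM, so that replicate 4 was the highest library by FPKM and the lowest by CPM. Tef, a clock output gene, was at 13.1, 18.8, 18.5, 88.3 and 27.7 FPKM with a CV of 0.148 by CPM. Whether isoform use or its estimation differed between these libraries was not tested.

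The noncoding gene AY036118 (chr17:39847113-39848035) was at 3573, 4736, 0.00, 0.00 and 0.00 FPKM. It lies within the span of CT010467.1 (chr17:39846353-39848827), annotated as ribosomal RNA, which was at 27299, 16911, 23460, 19700 and 12728 FPKM. The noncoding gene Gm42418 (chr17:39846958-39848788), at 3359 ± 400 FPKM, also lies within that span and covers all of AY036118. Reads of these overlapping genes cannot be told apart with certainty, and the level of each is uncertain.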
